A study of Mus musculus with 6 samples.

Results

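Loci assembled from the reads of mouse regulatory T cells were taken as antisense where they lay on the strand opposite a reference gene and over no reference gene on their own strand. Of 1139 such loci, the 419 present in 2 or more of 6 libraries are described. Antisense transcription is the making of RNA from the strand opposite a known gene, and the RNA can start inside the gene, at its promoter or in a neighbouring gene. Some antisense RNAs are known to affect the gene they overlap, through its chromatin, its splicing or collision of polymerases, and many have no known effect. In T cells such RNAs are known at several loci of cytokines and transcription factors, and most are far less abundant than mRNA.

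The cells were natural regulatory T cells (nTregs, a class of CD4 T cells defined by Foxp3, a transcription factor, that restrain immune responses) from the spleens of C57BL/6 mice of the Foxp3-DTR/EGFP genotype, in which cells that express Foxp3 also make EGFP and a diphtheria toxin receptor. All cells, controls included, had been activated for 2 days with antibodies to CD3 and CD28 and with IL-2, and were sorted on GFP at the end. The 3 control libraries had then received DMSO vehicle and the 3 treated libraries an EP4 agonist at 100 nM for 6 h. EP4 is a prostaglandin E2 receptor that raises cyclic AMP. Age and sex of the mice, and whether the 3 replicates were separate mice or cultures, are not stated by the labels. The p-values thus measure library-to-library spread alone, and that spread may be technical.

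Each library's table listed the same 47643 reference genes and between 19801 and 20833 features assembled from that library alone. An assembled feature with a strand counted as antisense where it overlapped no reference gene on its own strand and at least 1 on the other. Between 292 and 392 features per library met this rule, or 1.47 to 1.90% of the assembled features, while 2.46 to 2.91% carried no strand and could not be placed. Joined across libraries by overlap and strand they formed the 1139 loci, of which 419 were kept. These are called here by the sense gene, the gene on the other strand with the largest overlap, so that as-Gnal is the locus antisense to Gnal. The choice used presence in the assemblies, which depends on level: loci in exactly 2 libraries had a median of 0.478 FPKM (fragments per kilobase of transcript for each 1000000 fragments) and a median length of 2983 bases, and the 720 loci in a single library, just outside the rule, had 0.424 FPKM and 1567.5 bases.

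The libraries rested on 4.32 to 5.65 gigabases of aligned sequence each. They held the defining genes of the labelled cells, with Foxp3 at 109 to 154 FPKM, Il2ra at 786 to 937 and Cd3e at 174 to 199. Those of other cells were low, with Cd8a at 0.0664 to 0.506 FPKM, Lyz2 at 0 to 0.616 and Csf1r at 0 to 0.0306, although Cd8b1 reached 6.20 and Cd79b 5.09. In sorted bulk cells, fewer cells making a transcript and less of it per cell cannot be told apart. The library kit marks strand, per the labels, but the strand setting of the authors' assembly was not given in any source used here, so reads of a sense gene and of its antisense locus may not have been fully told apart.

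For 39 of the 419 loci a RefSeq gene on the same strand (GRCm38.p6, the same build as mm10) began within 500 bases of the locus start, taken as the median over the libraries' features. In 22 of them the distance was within 100 bases, and the median distance was 81.5 bases. Promoters of 3 such genes are printed 5′ to 3′ on the antisense strand, from RefSeq, each running from 250 bases before the start to 50 after it, since they lie at the median start of loci antisense to Msi2, Art2a-ps and Runx1. The starts differed between libraries: 4 of 6 libraries began within 500 bases of the RefSeq start at as-Msi2, 5 of 6 at as-Art2a-ps and both of the 2 at as-Runx1. They are 0610039H22Rik for as-Msi2 (chr11:88619001-88619300, + strand, median locus start 121 bases upstream of the RefSeq start), Gm19765 for as-Art2a-ps (chr7:101547622-101547921, + strand, 7.5 bases downstream) and Gm30281 for as-Runx1 (chr16:92761959-92762258, + strand, 82.5 bases downstream). Capitals mark TGACG, the core of the cyclic AMP response element, searched on both strands as TGACG or CGTCA. The GC box was searched as GGGCGG or CCGCCC and counted separately.
0610039H22Rik: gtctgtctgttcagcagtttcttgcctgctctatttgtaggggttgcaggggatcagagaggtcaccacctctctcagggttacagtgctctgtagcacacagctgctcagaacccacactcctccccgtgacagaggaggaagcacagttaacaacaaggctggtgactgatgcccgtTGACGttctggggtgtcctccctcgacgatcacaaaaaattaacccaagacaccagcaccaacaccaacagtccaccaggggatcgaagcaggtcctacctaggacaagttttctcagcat
Gm19765: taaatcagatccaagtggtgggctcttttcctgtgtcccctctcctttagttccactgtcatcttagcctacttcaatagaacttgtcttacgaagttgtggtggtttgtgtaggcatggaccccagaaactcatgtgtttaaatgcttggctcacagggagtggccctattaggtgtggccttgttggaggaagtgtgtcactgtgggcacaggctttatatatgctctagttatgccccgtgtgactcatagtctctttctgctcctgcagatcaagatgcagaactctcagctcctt
Gm30281: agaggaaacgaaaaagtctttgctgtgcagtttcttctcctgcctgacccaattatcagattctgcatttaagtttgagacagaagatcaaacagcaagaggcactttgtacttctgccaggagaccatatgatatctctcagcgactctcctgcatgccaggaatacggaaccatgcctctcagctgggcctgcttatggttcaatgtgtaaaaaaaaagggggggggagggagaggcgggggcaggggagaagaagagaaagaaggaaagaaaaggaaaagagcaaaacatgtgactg

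The promoter at as-Msi2 held 1 TGACG, 71 bases before the start. Neither motif occurred in the windows at as-Art2a-ps and as-Runx1. Over the 39 windows, 15.4% held TGACG or CGTCA, against 20.8% of all 32851 RefSeq windows of the same length, and 23.1% held a GC box, against 35.7%. The full element TGACGTCA was in 0 of the 39 windows and in 1.79% of all. TATAAA was in 15.4% against 13.6%, CCAAT in 38.5% against 37.4%, and the median GC content was 50.7% against 52.7%. These are letter matches and not measured sites.

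Most antisense loci lay within their sense gene. Of the 419, 297 (70.9%) were inside it, 53 ran over its 5′ end, 36 over its 3′ end and 33 spanned it. The sense gene was protein-coding for 360 loci. Of the loci over a 5′ end, 17 began inside the sense gene within 1000 bases of its start and ran out across it. The median beginning over all loci over a 5′ end was 1682 bases inside the gene. In 244 loci the extent covered exon bases of any GENCODE M21 gene on the sense gene's strand. The other 175 covered none and so lay wholly outside the exons on that strand.

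A part of the loci lie over same-strand GENCODE M21 or RefSeq genes, at places where the reference genes used here have no same-strand extent. Overlap was with a gene's whole extent, introns included, so it does not show that a locus is that gene's transcript. GENCODE M21 had a gene on the same strand at 45 loci and RefSeq at 107, which together made 130, and 289 had neither. The most abundant example is as-Cpsf2 (chr12:101968099-101976931, − strand, 957 bases inside Cpsf2 and out past its 5′ end), which lies over RefSeq Ndufb1, a subunit of mitochondrial complex I that GENCODE M21 lists as Ndufb1-ps. Its FPKM was 147, 128 and 119 in vehicle libraries 1, 2 and 3 and 110, 131 and 124 in agonist libraries 1, 2 and 3, so the groups overlapped. Cpsf2, which encodes a subunit of the pre-mRNA cleavage complex, had a mean of 19.4 FPKM, 6.53 times less. Another, as-Cdh23 (chr10:60390643-60393270, + strand), lies over a stretch that RefSeq gives to Vsir, the checkpoint protein VISTA, and began 17959 bases downstream of the table's own Vsir row. It had 5.19, 2.68 and 7.23 FPKM with vehicle and 7.16, 9.66 and 8.84 with agonist, where Cdh23 itself stayed between 0.0549 and 0.0979. Adjusted p for the locus was 0.316 in limma, and the groups overlapped. The reference gene Vsir had 19.9 ± 2.73 FPKM with vehicle and 19.3 ± 2.61 with agonist (SD, n = 3 each, adjusted p 0.922 in limma). From coverage, a value given beside FPKM for each feature, the locus would have 3.45, 1.44 and 3.44 FPKM with vehicle. With agonist it would have 6.23, 7.92 and 4.03, so the groups do not overlap. The limma fit on coverage, scaled by each library's summed coverage of reference genes, gave a log2 fold change of 0.97 (adjusted p 0.223). Loci were also placed relative to the nearest gene upstream on their own strand, and 48 of the 419 began within 5000 bases downstream of a same-strand reference gene and 15 within 1000. None of the 53 loci found in all 6 libraries began within 5000 bases of one, and 10 began within 20000.

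Antisense levels were low. The median over the 419 loci was 0.612 FPKM, with a range of 0.234 to 150, and 99 reached 1 FPKM and 8 reached 10. The median was higher the more libraries held a locus, which the rule builds in. It was 0.478 FPKM in 2 libraries (193 loci), 0.619 in 3 (87), 0.642 in 4 (48), 0.736 in 5 (38) and 1.27 in all 6 (53). The sense genes were more often expressed than reference genes at large: 66.8% of the 397 distinct sense genes had a mean of at least 1 FPKM, against 25.5% of all reference genes. The level of a locus said little about that of its gene. Spearman's rho between the mean FPKM of locus and sense gene was 0.0959 over the 407 loci with a sense gene above 0, and -0.0349 over the 52 of these found in all 6 libraries. These are descriptions across loci, which share the libraries and their depth. The locus stood above its sense gene in 140 of 419 cases.

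**Figure D1:**
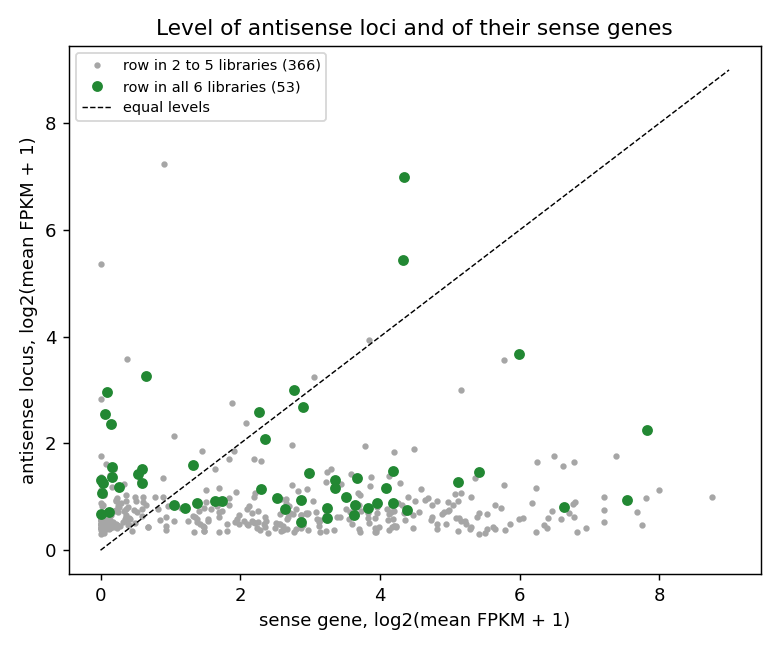
Mean FPKM of each of the 419 antisense loci (vertical axis) against that of its sense gene (horizontal axis), both as log2(FPKM + 1), with the 53 loci found in all 6 libraries in green and the dashed line at equal levels. The loci lie in a band of low values at all sense levels, and 140 of 419 are above the line.

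The highest mean, 150 FPKM, belonged to as-Camk2b (chr11:6005652-6013034, + strand), inside the gene of a calcium/calmodulin-dependent kinase best known from brain, which had 0.871 FPKM here. It had 223, 89.2 and 122 FPKM in the 3 vehicle libraries and 168 in agonist library 2. In agonist libraries 1 and 3 a feature at the same place carried no strand, with 246 and 140 FPKM, and the rule left it out. Its presence in 3 vehicle libraries and 1 agonist library thus followed the strand assigned to it and not its abundance.

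Because an absent feature is not an FPKM of 0, agonist and vehicle were compared over the 53 loci with a feature in all 6 libraries. Their log2(FPKM + 1) values were fitted with limma together with 12186 reference genes and 130 assembled loci that overlap no gene, and p-values were adjusted over all 12369 rows with a threshold of 0.05. Of the 53, 1 rose (1.89%) and 0 fell. Over all rows, 0.331% rose and 0.0485% fell. At an unadjusted p under 0.05, 3 antisense loci were higher and 2 lower, where 13.9% of all rows passed in either direction. The 3 agonist values lay above all 3 vehicle values in 6 loci (11.3%) and below them in 1 (1.89%), against 7.37% and 12% of all rows. From coverage they lay apart in 7 loci upward and 3 downward, of which 5 and 1 were also apart in FPKM. The share of all rows apart in coverage was not computed, so the counts of 7 and 3 have no background to be read against. The median log2 fold change was 0.03 over the 53 loci, -0.03 over all rows and 0.04 over the 130 loci that overlap no gene. Of the antisense loci 60.4% had a positive fold change, against 43.0% of all rows.

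The locus that rose was as-Gnal (chr18:67122759-67134195, − strand, 11437 bases). Gnal encodes the G protein alpha subunit of the olfactory type, a close relative of the stimulatory subunit, and both activate adenylyl cyclase, the enzyme that makes cyclic AMP. The locus lies inside Gnal (chr18:67088336-67226792, + strand, ENSMUSG00000024524.16) and begins 45859 bases from the gene's start. It covers 3555 GENCODE M21 exon bases on the strand of Gnal. It had 2.70, 1.10 and 0.970 FPKM in vehicle libraries 1 to 3 and 9.58, 9.53 and 8.71 in agonist libraries 1 to 3. Every agonist library was above every vehicle library, and the means were 1.59 ± 0.964 and 9.27 ± 0.488 FPKM (SD, n = 3 each). The log2 fold change was 2.05 ± 0.23 (SE), with an adjusted p of 0.0233 in limma.

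Gnal rose as well. Its FPKM was 4.03, 2.31 and 1.83 with vehicle and 11.2, 10.4 and 8.98 with agonist, a log2 fold change of 1.63 ± 0.21 (SE) with an adjusted p of 0.0331 in limma. Locus and gene ranked the libraries alike, with replicate 1 the highest and replicate 3 the lowest of each group in both. The locus stood at 0.671, 0.475 and 0.531 of the gene's FPKM in the vehicle libraries and at 0.852, 0.920 and 0.970 in the agonist libraries. Whether reads of one strand were counted on the other here was not tested. The call on as-Gnal was lost when vehicle library 2 or 3 or any 1 agonist library was left out (adjusted p 0.0832 to 0.122 in limma) and when reference genes of any level were added to the fit (0.154).

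The labels give both groups replicate numbers 1 to 3 but do not say that equal numbers share a source. In these same data, libraries of 1 number deviated together, with correlations of 0.321 to 0.512, and they were treated as pairs. With the number as a block in limma, 2 of the 53 loci rose, as-Gnal among them (adjusted p 0.0169), and as-Cep85 fell, while 3.99% of all rows rose and 6.15% fell.

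as-Cep85 (chr4:134159390-134164668, + strand, 5279 bases) was the second most abundant of the 53 loci and the only one with all agonist values below all vehicle values in FPKM. It lies inside Cep85, the gene of a centrosome protein, and covers 557 GENCODE M21 exon bases on that gene's strand. It had 54.7, 53.9 and 51.6 FPKM with vehicle and 25.6, 33.9 and 35.9 with agonist. The log2 fold change was -0.74 ± 0.13 (SE), with an adjusted p in limma of 0.0771 without the block and 0.0295 with it. The sense gene gave 31.8, 15.6 and 16.2 FPKM against 23.8, 13.0 and 14.9, overlapping groups in which number 1 was the highest of each (adjusted p 0.766 in limma, 0.0862 with the block). From the coverage column, vehicle library 1 would have 38.3 FPKM at as-Cep85, which leaves the groups apart but closer (adjusted p 0.228 in limma on coverage).

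**Figure D2:**
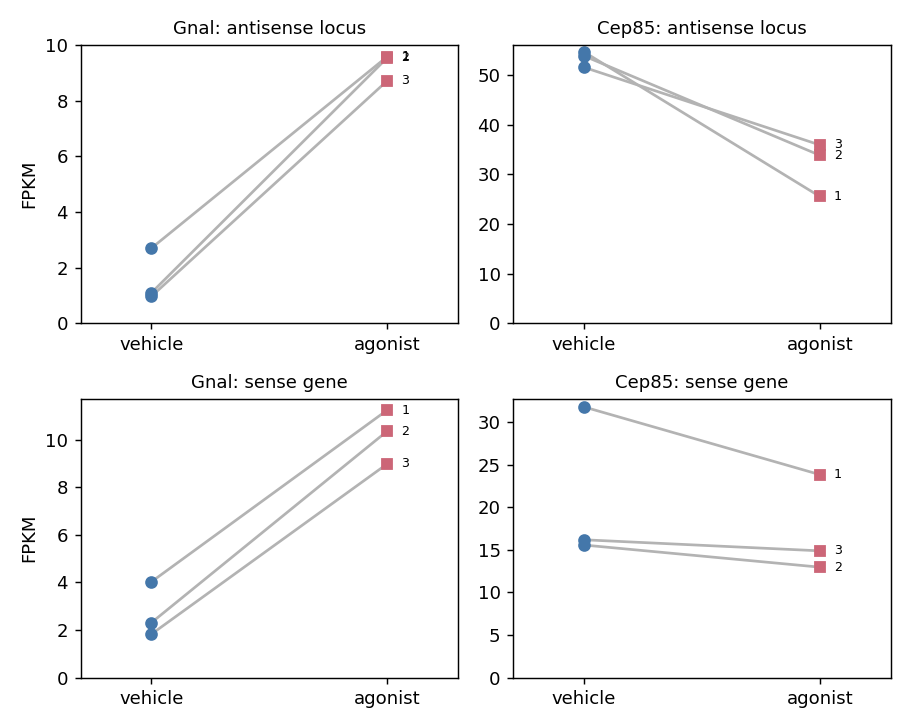
FPKM of the antisense locus (top) and the sense gene (bottom) for Gnal and Cep85, with 1 point per library and grey lines joining libraries of the same replicate number (printed at the right). Locus and gene are both higher with agonist for Gnal, while for Cep85 the groups separate at the locus and overlap at the gene.

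Further loci had groups that did not overlap and passed in neither fit. as-Gm5224, which spans a pseudogene and lies over the GENCODE M21 gene AC098880.2, had 4.23, 3.77 and 3.70 FPKM with vehicle and 4.71, 4.30 and 4.33 with agonist (adjusted p 0.523 in limma). Scml4 had more than 1 antisense locus, and the one at chr10:42886703-42888486 (− strand) is meant here. The loci as-Scml4, as-Cndp2 and as-Eps15l1 had means of 0.679 to 0.923 FPKM and were named after their values were seen. These were small differences, with log2 fold changes of 0.17 to 0.32. From coverage, as-Cndp2 would have 0.448, 0.386 and 0.434 FPKM with vehicle and 0.446, 0.316 and 0.290 with agonist, groups that overlap.

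The most abundant of the remaining loci did not pass the test in either fit. The more abundant of 2 loci antisense to Coro2a (chr4:46574478-46584927, + strand), inside the gene of an actin-binding coronin, had 12.8, 15.7 and 14.6 FPKM with vehicle and 5.79, 7.48 and 14.0 with agonist, and agonist library 3 lay among the controls (log2 fold change -0.69 ± 0.27 SE, adjusted p 0.325 in limma). From coverage the locus would have 4.75, 5.41 and 6.62 FPKM with vehicle and 3.34, 4.52 and 3.64 with agonist, so that agonist library 3 lies below every control and the groups do not overlap (log2 fold change -0.46, adjusted p 0.213 in limma). Coro2a itself had 63.9, 78.3 and 84.7 FPKM against 43.6, 48.4 and 57.0 and fell in the fit with the block (adjusted p 0.0169 in limma, 0.153 without it). as-Sult2b1, over the GENCODE M21 gene Gm31597 and the 5′ end of a sulfotransferase gene, had means of 7.63 ± 2.75 and 9.52 ± 1.34 FPKM (SD, n = 3 each) where Sult2b1 had 0.426 and 0.716. From coverage as-Sult2b1 would have means of 1.44 and 2.27, so its level and its excess over the gene depend on the column. as-Celf2, in an intron of an RNA-binding protein's gene, had 6.06 ± 1.95 and 7.88 ± 1.60 FPKM (SD, n = 3 each). Clec16a, whose antisense locus extends over 35306 bases, gave 5.17 ± 0.839 and 4.85 ± 0.871 FPKM at the locus and 3.44 ± 0.564 and 4.22 ± 0.142 at the gene (SD, n = 3 each). as-Gm10271, which overlaps RefSeq 4933412E12Rik, had 4.30 ± 1.07 and 5.49 ± 0.461 FPKM, and as-Lclat1 had 4.08 ± 1.63 and 2.37 ± 1.72 (SD, n = 3 each). In each of these loci the groups overlapped in FPKM. Levels from coverage were lower for several, at 71.2 to 90.6 FPKM for as-Cpsf2, 2.02 to 2.74 for as-Clec16a, 1.59 to 4.42 for as-Gm10271 and 0.515 to 5.90 for as-Lclat1, with groups that overlap.

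**Figure D3:**
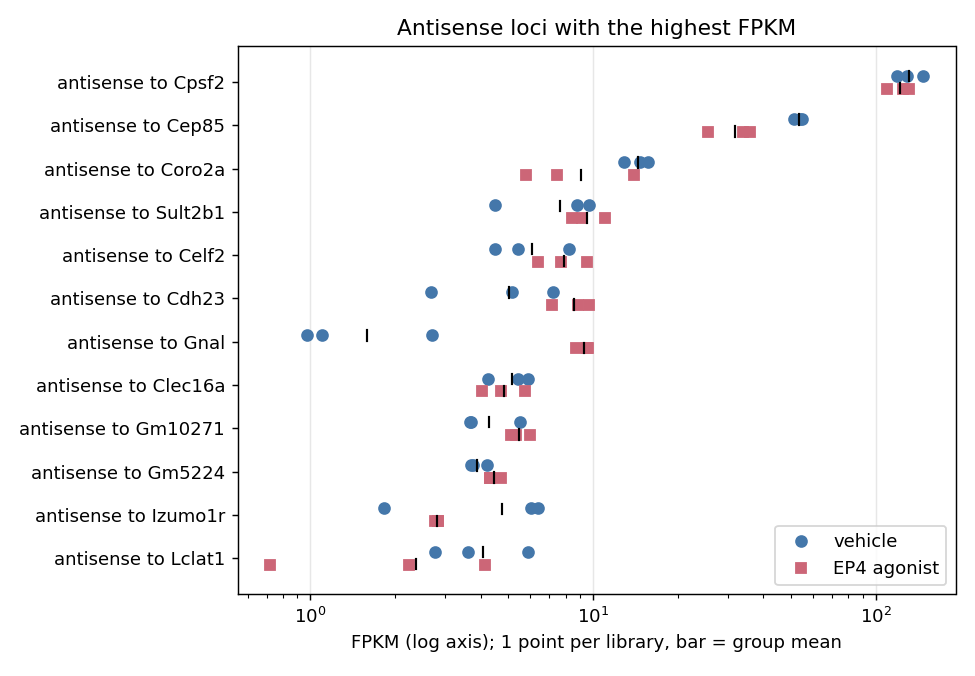
FPKM per library on a log axis for the 12 antisense loci of highest mean among the 53, with vehicle as blue circles, agonist as red squares and a bar at each group mean. The groups are apart for as-Gnal (vehicle at most 2.70, agonist at least 8.71), as-Cep85 and, narrowly, as-Gm5224.

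Sense genes were read from the same fit. Of the 397 distinct sense genes, 266 were tested, and 1 rose (Gnal, 0.376% against 0.331% of all rows) and 0 fell (against 0.0485%). In the fit with the block these counts were 16 and 16, or 6.02% each way against 3.99% and 6.15% of all rows. Among the sense genes of the 53 loci, 4 rose with the block (Gnal, Vmp1, Izumo1r and Rab3ip) and 2 fell (Coro2a and Glipr2). Of these only Gnal had an antisense locus that passed in the same fit. Over the 37 pairs with both members tested, 20 had fold changes of the same sign and Spearman's rho was 0.19, given as a description across pairs that share libraries.

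**Figure D4:**
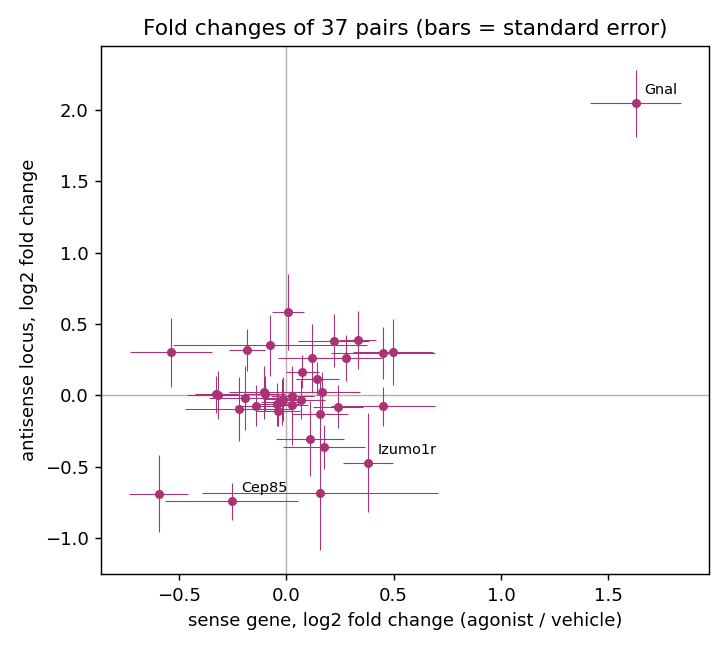
Log2 fold change (agonist over vehicle) of the antisense locus against that of its sense gene for the 37 pairs in which both were tested, with bars of 1 standard error. Gnal stands alone at 1.63 and 2.05, and 20 of the 37 pairs have the same sign.

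Gene lists of regulatory T cell, cyclic AMP and prostaglandin biology were read against all reference genes, of which 0.926% had an antisense locus, or 2.28% of those with a mean of at least 1 FPKM. Of 44 genes of Treg identity and suppression, 5 had a locus (11.4%; Bach2 had 3 loci, and Havcr2, Runx1, Gpr83 and Izumo1r 1 each). Of 51 genes of cyclic AMP signalling and CREB, Gnal and Gnas had one (3.92%), and of 16 prostaglandin genes Ptger4 did (6.25%). At a mean of at least 1 FPKM were 43 of the 44 Treg genes, 47 of the 51 cyclic AMP genes and 8 of the 16 prostaglandin genes. Among these the shares with a locus were 11.6%, 4.26% and 12.5%, against the 2.28%. The lists were chosen with results of these data known, so these shares are a description. None of 23 genes of co-stimulation and co-inhibition and none of 43 cytokine and signalling genes had one. Of the 10 loci, 4 were in all 6 libraries and so were tested, and as-Gnal passed. The other 6 were not tested.

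The locus of the agonist's own receptor, as-Ptger4 (chr15:5236628-5249100, + strand), runs over the 5′ end of Ptger4, the EP4 gene. It covers 1503 GENCODE M21 exon bases on that gene's strand. It had 0.831, 0.782 and 0.653 FPKM with vehicle, 1.82 and 0.782 in agonist libraries 1 and 2, and no feature in agonist library 3, so it was not tested. Agonist library 1 was the highest and agonist library 2 lay within the controls. Ptger4 had 25.7, 31.3 and 33.6 FPKM with vehicle and 20.1, 17.8 and 20.9 with agonist, and fell in the fit with the block (log2 fold change -0.59 ± 0.12 SE, adjusted p 0.0316 in limma, 0.109 without it). as-Gnas, in an intron of the stimulatory G protein gene, was seen in 4 libraries at 0.412 to 1.76 FPKM, where Gnas had 195 to 268.

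Izumo1r, which encodes the folate receptor FR4 of regulatory T cells, and Gpr83, a receptor gene that is high in these cells, are neighbours on chromosome 9, and each had an antisense locus over its 5′ end. as-Izumo1r (chr9:14903403-14936858, + strand) began 546 bases inside Izumo1r. It had 6.40, 1.83 and 6.02 FPKM with vehicle and 2.82, 2.76 and 2.82 with agonist (log2 fold change -0.47 ± 0.35 SE, adjusted p 0.589 in limma). The groups overlapped, and the direction depended on the column used. From coverage the same values would be 1.18, 1.14 and 1.19 with vehicle and 1.94, 1.92 and 1.74 with agonist, higher with agonist in all 3 libraries (log2 fold change 0.45, adjusted p 0.0799 in limma). Izumo1r had 228, 171 and 190 FPKM with vehicle and 260, 244 and 259 with agonist, and rose with the block (adjusted p 0.0463 in limma, 0.229 without it). as-Gpr83 had 1.15, 3.21 and 1.53 FPKM with vehicle and 5.17 and 0.898 in agonist libraries 2 and 3, and in agonist library 1 the feature there overlapped no reference gene. Gpr83 had 68.0 ± 10.6 and 110 ± 8.52 FPKM (SD, n = 3 each) and rose with the block (adjusted p 0.0186 in limma, 0.0886 without it).

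Bach2, a transcription factor that restrains T cell differentiation, carried 3 separate antisense loci along its length, all on the − strand. The first, 6313 bases from the gene's start, had 0.713 ± 0.240 FPKM with vehicle and 1.12 ± 0.411 with agonist, and the second 0.473 ± 0.0839 and 0.397 ± 0.112 (SD, n = 3 each). Neither passed (adjusted p 0.511 and 0.848 in limma). The third was found in 5 libraries at 0.441 to 0.868 FPKM. Bach2 had 5.13 ± 1.38 and 7.47 ± 2.29 FPKM (SD, n = 3 each, adjusted p 0.456). as-Havcr2, inside the gene of the inhibitory receptor TIM-3, was at 0.247 to 0.446 FPKM in 4 libraries, and as-Runx1, at the Gm30281 start printed above, at 0.361 and 0.444 in 2.

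Presence in the assemblies did not separate the groups for most loci. Libraries held 206 to 243 of the 419 loci. By group, 53 loci were in all 6 libraries and 109 were in 1 vehicle and 1 agonist library. Another 6 were in all 3 vehicle and no agonist library, and 2 in all 3 agonist and no vehicle library. A further 48 were in 2 vehicle and no agonist library, and 36 in 2 agonist and no vehicle library. Of all library and locus combinations without an antisense feature, 1021 had no feature there, 71 had one that also overlapped a same-strand gene, 55 had one over no gene and 20 had one with no strand. A library outside the count of a locus therefore may still hold a feature there.

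**Figure D5:**
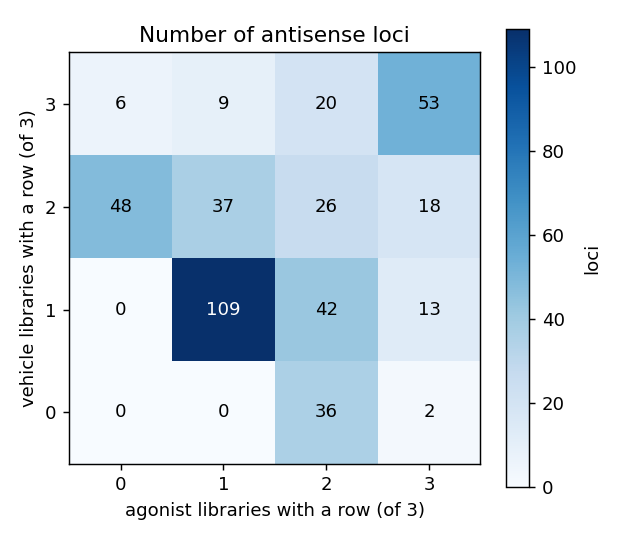
Number of antisense loci by how many of the 3 vehicle libraries (vertical axis) and of the 3 agonist libraries (horizontal axis) held them, with darker cells for more loci. The corners of complete separation hold 6 and 2 loci, and 53 were in every library.

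By FPKM, the highest of the 6 loci in all 3 vehicle libraries and no agonist library was as-Plagl1 (chr10:13130594-13131652, − strand). It lies wholly over GENCODE M21 exon bases on the strand of Plagl1, an imprinted zinc finger gene that restrains the cell cycle. It had 2.77, 2.49 and 1.51 FPKM in the vehicle libraries and no feature with agonist. Plagl1 itself had 0.680, 0.572 and 0.324 FPKM in the vehicle libraries and 7.32, 3.58 and 2.99 with agonist, a log2 fold change of 1.81 ± 0.27 (SE) that passed with the block (adjusted p 0.0177 in limma, 0.0529 without it). From coverage, as-Plagl1 would be at 0.158, 0.193 and 0.410 FPKM, far below the FPKM column. The others of the 6 loci were as-Cfap46 (chr7:139650939-139654548, + strand), as-Il6ra, as-Tex14, as-Tex12 and as-Ezr, with means of 0.327 to 0.580 FPKM. as-Il6ra, in an intron of the interleukin-6 receptor gene, had 0.536, 0.603 and 0.596 FPKM, and Il6ra had 8.39 to 10.8 with vehicle and 5.49 to 9.32 with agonist. as-Tex12 lies over Il18 in GENCODE M21 and RefSeq, and in 2 agonist libraries a feature there was joined to a same-strand reference gene. Likewise, 2 of 3 vehicle libraries had such a feature at each of the 2 loci in all 3 agonist libraries and no vehicle library. These were as-Iqgap2 (chr13:95685915-95696661, + strand, 0.535, 0.972 and 0.816 FPKM) and as-4930595D18Rik (mean 0.827 FPKM). Another locus antisense to Iqgap2 (chr13:95765136-95776174, + strand) was in all 6 libraries. It had 0.897 ± 0.618 FPKM with vehicle and 0.814 ± 0.139 with agonist (SD, n = 3 each, adjusted p 0.980 in limma).

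Reference genes that GENCODE M21 classes as antisense gave a set for comparison, chosen by annotation and not by these assemblies. Of 2359 with a row, 143 passed the FPKM filter. Of these 0 rose and 0 fell in limma, with 17 (11.9%) at an unadjusted p under 0.05 against 13.9% of all rows, and their median log2 fold change was 0.03, the same to 2 decimals as that of the assembled loci. With the block, 7 rose (4.90% against 3.99% of all rows) and 1 fell (0.699% against 6.15%), and 0 passed in either direction once any pair of libraries was left out. The largest rise was that of Gm16350, from 0.889 ± 0.641 to 2.41 ± 1.13 FPKM (SD, n = 3 each, log2 fold change 0.86, adjusted p 0.0220 in limma with the block and 0.291 without), and the gene that fell was Gm16315, from 1.24 ± 0.120 to 0.529 ± 0.218 FPKM (SD, n = 3 each, adjusted p 0.0495 with the block).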

How the data were processed

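RNA from the sorted cells was sequenced in 6 libraries, 3 per group, grouped by their titles. Trim Galore, HISAT2 and the mm10 build are named in the submitters' processing notes. Which assembler, annotation release and strand setting were used is not given in the sources used here. As the file headers show, the authors deposited for each feature of each library a coverage and an FPKM value, used as deposited; the TPM column, which sums to 1901346 to 1930242, was not used. The ratio of coverage to FPKM was constant in 31.5 to 32.6% of rows above 1 FPKM, to within 0.1%, and that ratio gave the gigabases. Over the antisense loci, FPKM exceeded the value coverage gives by more than 1.5 times in 299 of 1334 values, and the reason was not tested. Values given from coverage were obtained with the constant ratio. The fits on coverage instead scaled each library by its summed coverage of reference genes. Their fold changes can thus differ from those of the printed values. Fragment counts were not used, so no interval for counting error is given.

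Several features of 1 locus in 1 library were averaged by length. A reference gene was tested if 3 or more libraries had it at 1 FPKM or above. Values were tested as log2(FPKM + 1), which understates changes at low FPKM, with limma 3.58.1 (trend, robust, statmod 1.5.0, R 4.3.3) and Benjamini-Hochberg adjustment over all 12369 rows; "rose" and "fell" mean an adjusted p under 0.05. The fit without the block was tried on simulated data with independent errors. Changes were planted only in rows of higher level than most of the 53 loci. Such data cannot show how well changes at those loci, or in the fit with the block, are found. The pairing of replicate numbers was checked from deviations from group means (same number 0.321 to 0.512, different numbers -0.353 to 0.00197). Such deviations cancel within a group, so these ranges are not independent of each other. Python 3.11.15, pandas 2.3.3, numpy 2.4.6 and matplotlib 3.10.9 were used. Loci were named by rule: the 12 most abundant of the 53, and those past the threshold. Loci with groups apart and a mean of at least 1 FPKM were also named. So were up to 6 per direction found in all 3 libraries of 1 group and in none of the other. The rest were those over listed genes, and the 6 highest relative to a sense gene of at least 1 FPKM. Some items that these rules name are not reported here. Members, lists and rules were chosen with earlier results of these data known.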

Additional observations from a re-analysis of the deposited data

How the results depend on the processing

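The number of antisense loci, 419, was 226 when 3 libraries were required and 53 when all 6 were. It ranged from 342 to 368 with 1 library left out. The other alternatives gave 289 to 419; barring loci over a same-strand GENCODE M21 gene (374) or over that or a RefSeq gene (289) was chosen after seeing the data. Without the block, 1 antisense locus rose: 0 did with no floor on reference genes, 2 with upper quartile scaling, 2 with coverage in place of FPKM, and 0 to 1 with 1 library left out. With the replicate block 2 rose and 1 fell, and 0 to 1 rose and 0 to 1 fell when a pair of libraries was also left out. Of the sense genes of the 53 loci, 1 rose: 0 did with no floor and 0 to 1 with 1 library left out, and with the replicate block 4 rose and 2 fell (0 to 2 and 0 to 1 without a pair). Of annotated antisense genes 0 rose or fell, 1 rose with coverage, and with the replicate block 7 rose and 1 fell (0 and 0 without a pair). as-Gnal passed in 11 of 19 alternatives (adjusted p 0.00154 to 0.154, log2 fold change 1.88 to 2.61) and as-Cep85 in 2 (0.0295 to 0.275), each in 1 direction. The direction turned for as-Izumo1r with coverage (0.45). Near 0, it also turned for as-Cpsf2 (0.047 with the block and without pair 1) and as-Clec16a (-0.19 to 0.023 with 1 library left out, above 0 without vehicle library 1 or agonist library 2, and 0.0083 with the block and without pair 1). The cause of these changes was not tested. With 1 library of a group left out, the remaining 2 carry its spread.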
